A study of Mus musculus with 40 samples.

Results

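Complement is a system of plasma proteins that mark microbes, dying cells and debris for removal. The genes described here are 8 complement genes of cardiac fibroblasts, *C3*, *Cfb*, *C4b*, *C1s1*, *C1ra*, *Serping1*, *Cd55* and *C3ar1*, which were named as a list and read in every library of the study. The list was chosen with earlier results of these data known, so its calls set beside those of all genes are a description only. They are 8 of 55414 gene identifiers in the count table, and all 8 were among the 25210 genes with at least 10 counts in total. Fibroblasts were isolated from hearts of adult C57BL/6J TAK1fl/fl mice, in which Cre recombinase removes part of *Map3k7*, the gene for the kinase TAK1. Cells were grown with 20 ng/ml bFGF, used at passage 1, and given an adenovirus that carried iCre or, as a control, LacZ under the CMV promoter. After serum starvation, cells of either kind were left without ligand (CTRL) or given bFGF at 20 ng/ml, IL-1β at 15 ng/ml, or TGFβ or TNF-α at 10 ng/ml, for 24 h. All 10 groups thus share the floxed genotype, the virus step and the starvation, and each held 4 libraries of poly-A RNA, which gave 40. The labels number the replicates 1 to 4 in each group. The study describes them as biological replicates, from male mice, and the p-values measure the spread between them.

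Complement can start along several pathways that all lead to cleavage of C3. In the classical pathway, the protease C1r activates the protease C1s, which cleaves C4 and C2. In the alternative pathway factor B joins a fragment of C3 to form an enzyme that cleaves more C3. The C1 inhibitor encoded by *Serping1* blocks C1r and C1s, CD55 breaks up the enzymes that cleave C3 on the cell's own surface, and the receptor C3aR1 senses the small fragment released from C3. The liver makes most complement of the plasma, and fibroblasts and macrophages are known as local sources in tissues. TAK1 passes signals of the IL-1 and TNF receptors on to NF-κB and MAP kinases, and the comparison of iCre with LacZ asks which of the responses need it.

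Libraries held 25360947 to 66160732 counts. *Map3k7*, counted over the whole gene and so with transcripts of the recombined allele, was at 144 to 251 CPM (counts scaled to library size, with TMM factors) in LacZ libraries and at 122 to 160 CPM in iCre libraries, and at each ligand every iCre library lay below every LacZ library. The 8 fibroblast markers summed to 10069.5 to 66859.9 CPM, the lowest of them being *Tcf21* at 3.14 to 103 CPM. Pericyte markers summed to 71.9 to 1920 CPM, macrophage markers to 16.8 to 169 CPM and cardiomyocyte markers to 0.543 to 111 CPM. Endothelial markers summed to 0.882 to 13.7 CPM and mesothelial markers to 1.82 to 10.9 CPM. Those of neutrophils and lymphocytes summed to at most 1.2 CPM, with *S100a9* and *Cd3e* at 0 counts in all 40 libraries. Across 12298 genes, log2 CPM changed with GC content with a slope of 0.197 to 0.339 (for 10% GC) in 12 libraries, those of iCre cells given TNF-α, IL-1β or TGFβ, and over −0.248 to 0.00268 in the other 28.

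*C3* (ENSMUSG00000024164) lies on the reverse strand at chr17:57203970-57228136 of GRCm38, and *Cfb* (ENSMUSG00000090231, chr17:34856374-34862518) and *C4b* (ENSMUSG00000073418, chr17:34728380-34743882) lie on the same chromosome in the reverse direction. *C1ra* (ENSMUSG00000055172, chr6:124512405-124523443, forward strand) and *C1s1* (ENSMUSG00000038521, chr6:124530345-124542359, reverse strand) are neighbours on chromosome 6, which also carries *C3ar1* (ENSMUSG00000040552, chr6:122847138-122856161, reverse). *Serping1* (ENSMUSG00000023224) is at chr2:84765387-84775444 and *Cd55* (ENSMUSG00000026399) at chr1:130439027-130462744, both in the reverse direction. The exons of *Cfb* share 79.5% of their 2825 bases, on the same strand, with *Gm20547*, a read-through gene that was listed at 0 counts in all 40 libraries. Reads in that stretch may have been counted for neither gene, so the level of *Cfb* per length is uncertain, while the shared stretch is the same in every library. *C4b*, *C1s1*, *C1ra* and *Cd55* have near-identical copies (*C4a*, *C1s2*, *C1rb* and *Cd55b*) that can split their reads, and 18.4% of the exon bases of *C1s1* lie opposite *Gm16567*, which held 284 counts against 517130 for *C1s1*.

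Promoters from RefSeq (GRCm38.p6, 250 bases before to 50 after a start) were given for 5 of the 8 genes. Those of *C3*, which had the largest change with IL-1β among the 8 genes, and of the protease pair *C1s1* and *C1ra*, whose levels ran together, are shown 5′ to 3′ with capitals for the motif matches. They cover chr17:57228087-57228386 (reverse strand), chr6:124542310-124542609 (reverse) and chr6:124512371-124512670 (forward).
C3: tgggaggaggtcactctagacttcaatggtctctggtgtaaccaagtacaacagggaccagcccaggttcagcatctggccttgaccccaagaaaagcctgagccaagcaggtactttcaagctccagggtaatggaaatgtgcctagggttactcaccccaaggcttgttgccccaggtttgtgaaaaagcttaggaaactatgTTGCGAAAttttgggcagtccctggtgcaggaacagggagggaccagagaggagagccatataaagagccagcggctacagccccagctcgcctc
C1s1: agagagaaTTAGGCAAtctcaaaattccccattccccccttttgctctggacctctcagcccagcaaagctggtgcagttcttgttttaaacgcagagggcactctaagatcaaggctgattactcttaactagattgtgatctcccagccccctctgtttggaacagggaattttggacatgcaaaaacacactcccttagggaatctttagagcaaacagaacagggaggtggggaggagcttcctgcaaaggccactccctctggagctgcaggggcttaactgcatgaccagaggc
C1ra: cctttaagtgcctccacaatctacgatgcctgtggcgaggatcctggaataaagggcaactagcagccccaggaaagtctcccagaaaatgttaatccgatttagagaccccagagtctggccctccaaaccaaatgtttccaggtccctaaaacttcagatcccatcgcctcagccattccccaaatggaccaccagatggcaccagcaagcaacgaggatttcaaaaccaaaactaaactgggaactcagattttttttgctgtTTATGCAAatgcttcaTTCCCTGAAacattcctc
Patterns were searched on both strands, and no 2 matches overlapped. The promoters of *C3* (TTGCGAAA, positions −45 to −38 from the start), *C1s1* (TTAGGCAA, −242 to −235) and *C1ra* (TTATGCAA, 16 to 23) each held the C/EBP pattern TTGCNNAA, the last 2 on the opposite strand, and 10.8% of 32817 promoters of this length held it. *C1ra* also held the STAT pattern TTCNNNGAA (TTCCCTGAA, 32 to 40; 8.29% of promoters), and *C3ar1* held the AP-1 pattern TGANTCA (−22 to −16; 7.81%). None of the 5 windows held the κB consensus (8.46% of promoters) or the interferon-stimulated response element (3.43%), and that of *Cd55* matched none of the 5 patterns. The patterns were chosen after these sequences were seen, and the annotated start of *C1ra* in GENCODE lies at −216 from the start used by RefSeq.

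In serum-starved LacZ fibroblasts 6 of the 8 genes were expressed at more than 100 CPM, and *Cfb* and *C3ar1* were below 5 CPM. Compared per length, in RPKM (CPM per kilobase of exon), *Serping1* was highest at 438, followed by *C1s1* at 124, *C3* at 107, *C1ra* at 62.5, *Cd55* at 50.02 and *C4b* at 24.8, with *Cfb* at 0.952 and *C3ar1* at 0.667. With IL-1β the order began with *C3*, at 1357 RPKM against 639.7 for *Serping1*. The inhibitor was thus the leading transcript at rest and the central component the leading one after IL-1β. Over the 10 groups, the highest group mean was 71.9 times the lowest for *Cfb*, 39.7 for *C3*, 18.5 for *C1s1* and 11.7 for *C1ra*, against 3.69 for *C4b*, the least variable.

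**Figure D1:**
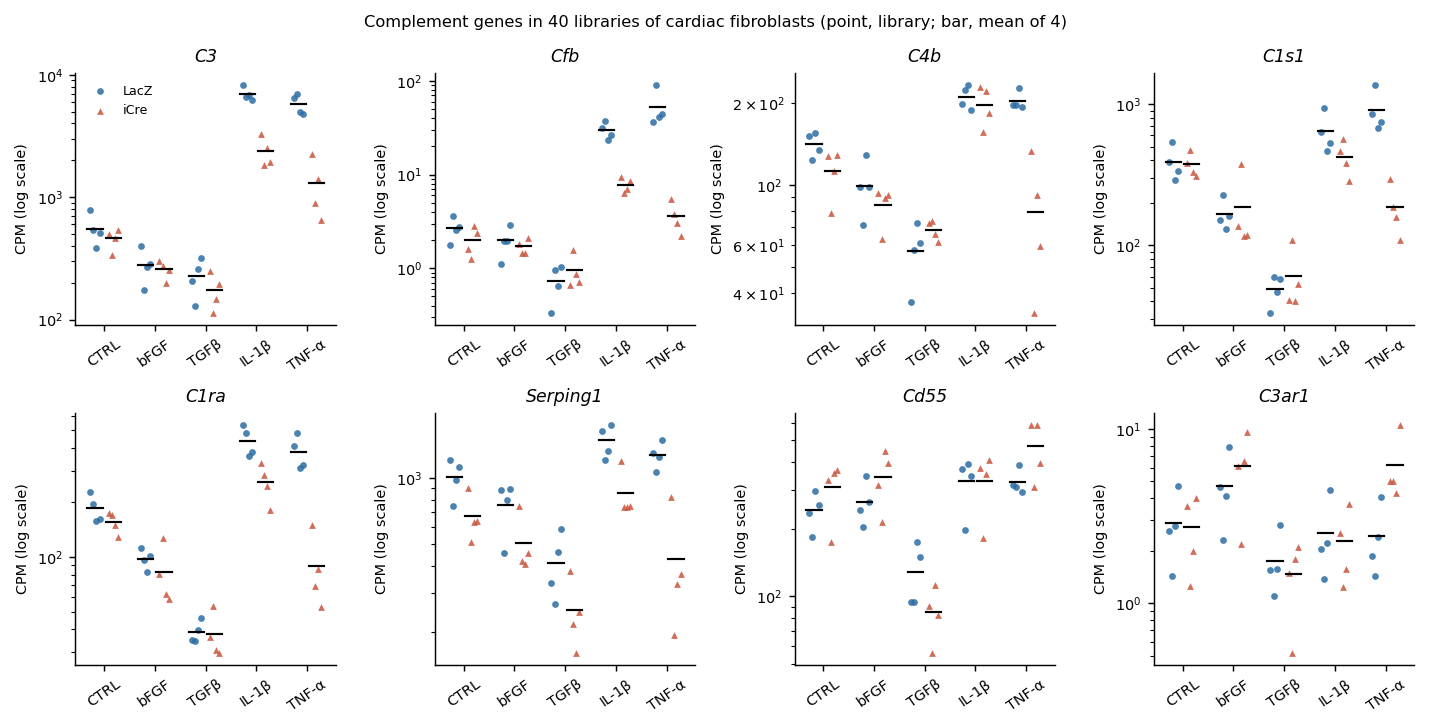
CPM (log scale) of the 8 complement genes in each of 40 libraries, by ligand, for LacZ (circles) and iCre (triangles), with a bar at the mean of 4. *C3* and *Cfb* stand highest with IL-1β and TNF-α in LacZ cells, and *C1s1* and *C1ra* lowest with TGFβ.

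Summed over the 8 genes, the level was 2535 ± 338 CPM (SD, n = 4) in LacZ CTRL, 10116 ± 1072 with IL-1β and 8959 ± 1291 with TNF-α. *C3* made up 21.8% of this sum in CTRL, 68.97% with IL-1β and 64.8% with TNF-α, so most of the rise was one gene. In iCre cells the sum was 2088 ± 277 in CTRL, 4477 ± 1004 with IL-1β and 2564 ± 1223 with TNF-α. At its highest, with IL-1β in LacZ cells, *C3* took 0.659% of all counted reads. In these bulk samples fewer cells of a type and less RNA per cell cannot be told apart.

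**Figure D2:**
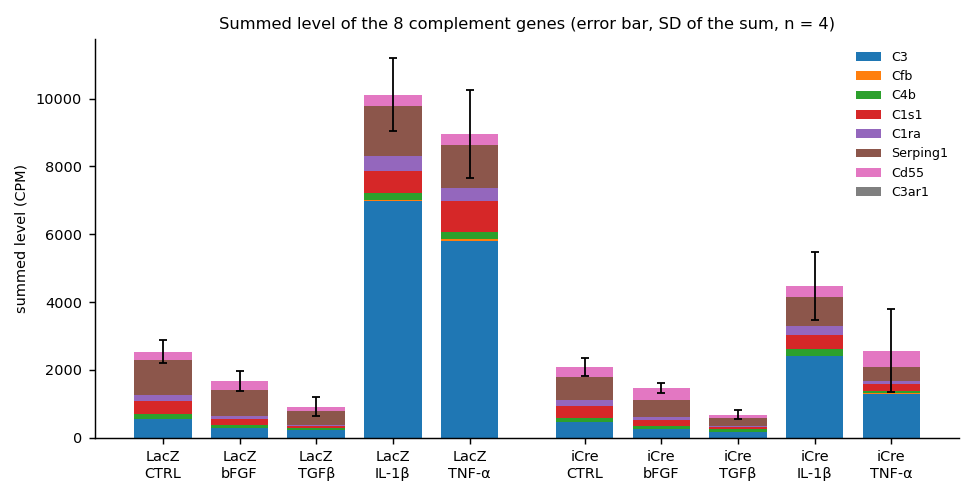
Mean CPM of the 8 complement genes stacked by group, with the SD of the sum over 4 libraries. The sum is largest in LacZ cells with IL-1β (10116 CPM), and *C3* (the lowest segment) forms 69% of it.

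To learn which complement genes respond to an inflammatory ligand while TAK1 is intact, IL-1β was compared with CTRL in LacZ fibroblasts by edgeR's quasi-likelihood test, with p-values adjusted by the Benjamini-Hochberg method over all 25210 genes. *C3* and *Cfb*, the components that build the C3-cleaving enzyme of the alternative pathway, rose more than 10-fold, and the protease *C1ra* and the C4 gene *C4b* rose less. These 4 of 8 genes passed an adjusted p of 0.05 as higher and none as lower, where 11.1% of all genes tested were higher and 9.55% lower. Shares of all genes, here and below, include genes with few counts. Among the 15366 genes kept by a stricter filter on counts (filterByExpr), 19.6% were higher and 17.9% lower. The median log2 fold change of the 8 genes was 0.67, against −0.10 over all genes.

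*C3* was at 784, 535, 381 and 507 CPM in the 4 CTRL libraries and at 8299, 6530.3, 6859 and 6219 CPM with IL-1β. The groups did not overlap, and the rise was 12.7-fold (log2 fold change 3.67 with a standard error of 0.24, adjusted p = 9.71e-06). *Cfb*, the gene of factor B, was at 1.79, 3.62, 2.56 and 2.79 CPM in CTRL, and at 31.7, 36.9, 23.3 and 26.7 CPM with IL-1β, which was 11.2-fold higher (log2 fold change 3.48 with a standard error of 0.22, adjusted p = 7.34e-06). Every stimulated library again lay far above every control. *C1ra*, the protease that activates C1s, went from 228, 197, 158 and 162 to 537, 482, 359 and 378 CPM without overlap (log2 fold change 1.25 with a standard error of 0.16, adjusted p = 0.000656). *C4b*, the substrate of C1s, went from 152, 124, 155 and 135 to 198, 223, 234 and 188 CPM, 1.5-fold, which also separated the groups (log2 fold change 0.59 with a standard error of 0.11, adjusted p = 0.0037).

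The remaining genes overlapped between the groups. *C1s1* was at 632, 940.2, 467 and 530.3 CPM with IL-1β against 392, 535, 289.6 and 337 in CTRL, just short of the threshold (log2 fold change 0.74 with a standard error of 0.24, adjusted p = 0.0501), and passed by DESeq2 (adjusted p = 0.0144), as did *Serping1* (0.0156). *Serping1* was at 1487 ± 255 against 1018 ± 205 CPM (SD, n = 4) and *Cd55* at 327 ± 87.7 against 243 ± 46.3 CPM. In a fit with the replicate number as a block, which compares libraries of the same number with each other, these 3 also passed as higher (adjusted p = 7.64e-09, 2.16e-06 and 0.00016), which made 7 of 8 where 16.3% of all genes were higher, and without replicate 2, whose control is highest for *C1s1* and lowest for *Serping1* and *Cd55*, the fit without the block also called 7 (all genes 11.8% higher). *C3ar1* was at 2.53 ± 1.34 against 2.87 ± 1.35 CPM, and passed in neither fit. Markers moved beside these genes. Of 8 fibroblast markers 2 were higher with IL-1β (*Col1a1* and *Dcn*), with a sum of 34730.2 to 66859.9 against 27609.8 to 43313 CPM, and of 8 macrophage markers *Csf1r* was higher and *Cx3cr1* lower (49.4 to 169 against 50.97 to 151 CPM). Of 4 pericyte markers *Kcnj8* and *Cspg4* were lower (255 to 772 against 106 to 557 CPM for all 4), of 3 cardiomyocyte markers tested *Tnnt2* was lower (0.543 to 1.92 against 14.9 to 111 CPM), and of 2 neutrophil markers *S100a8* was higher (0.353 to 1.2 against 0.0 to 0.022 CPM). Their part in the result was not tested.

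TNF-α in LacZ fibroblasts raised these 4 genes and *C1s1*, so that both C1 proteases were higher. Of the 8 genes 5 passed as higher and none as lower, where 10.9% of all genes were higher and 10.4% lower, and the median log2 fold change was 0.78 against −0.08 over all genes. *Cfb* rose 19.8-fold, to 36.4, 91.3, 40.8 and 44.4 CPM (log2 fold change 4.31 with a standard error of 0.34, adjusted p = 3.7e-05). Replicate 2 stood at more than 2 times the others, and without it the log2 fold change was 4.09. *C3* reached 6423, 6984, 5006 and 4795 CPM, 10.5-fold over CTRL (log2 fold change 3.40 with a standard error of 0.24, adjusted p = 2.09e-05). The groups did not overlap for either gene.

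*C1s1* reached 848, 1372, 675 and 749 CPM (log2 fold change 1.24 with a standard error of 0.25, adjusted p = 0.00627) and *C1ra* 409.6, 481, 312 and 321 CPM (log2 fold change 1.03 with a standard error of 0.17, adjusted p = 0.00207). For *C1s1* the lowest stimulated library, replicate 3, was above the highest control. *C4b* was at 197, 197, 227 and 193 CPM (log2 fold change 0.53 with a standard error of 0.10, adjusted p = 0.00425), a small change with little spread, though it did not pass when all 40 libraries shared 1 estimate of the spread (adjusted p = 0.119, and 0.0814 for IL-1β). *Serping1* (mean 1279 CPM) and *Cd55* (326 CPM) overlapped with CTRL and passed as higher with the replicate block (adjusted p = 0.000225 and 0.000107), *Cd55* also by DESeq2 (0.0286). The block gave 7 of 8 where 17.2% of all genes were higher. *C3ar1* was at 2.44 ± 1.15 CPM. With TNF-α 1 of 8 fibroblast markers was lower (*Col3a1*; sum 23346 to 30702 CPM), as were 2 of 4 pericyte markers (*Kcnj8* and *Abcc9*; 71.9 to 368 CPM) and *Tnnt2* of 3 cardiomyocyte markers (1.08 to 6.65 CPM), while none of 8 macrophage markers passed (42.3 to 161 CPM). Their part was not tested.

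TGFβ lowered the complement genes. In LacZ fibroblasts 7 of the 8 genes passed as lower, where 19.3% of all genes were lower and 17.5% higher. The median log2 fold change of the 8 was −1.29 against −0.17 over all genes, so that it lay −1.12 from the shift of all genes. The C1 proteases fell most. *C1s1* was at 33.0, 59.6, 46.9 and 57.3 CPM, 7.79 times lower than in CTRL (log2 fold change −2.96 with a standard error of 0.22, adjusted p = 6.71e-06), and *C1ra* was at 34.99, 34.3, 39.4 and 46.1 CPM, 4.76 times lower (log2 fold change −2.25 with a standard error of 0.14, adjusted p = 2.55e-06). Every TGFβ library of either gene lay below every control. *Cfb* was at 0.331, 0.964, 0.641 and 1.02 CPM, lowest in replicate 1 and below every control in all 4 (log2 fold change −1.85 with a standard error of 0.36, adjusted p = 0.00245).

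*C4b* was at 37.2, 57.7, 72.6 and 61.03 CPM (log2 fold change −1.29 with a standard error of 0.18, adjusted p = 0.000244), *Serping1* at 333, 268, 461 and 589 CPM (log2 fold change −1.29 with a standard error of 0.24, adjusted p = 0.00192) and *C3* at 207, 129, 259 and 319 CPM (log2 fold change −1.26 with a standard error of 0.28, adjusted p = 0.005). The inhibitor of the C1 proteases thus fell together with its targets. *Cd55*, the membrane regulator, was at 94.3, 93.96, 175 and 151 CPM against 236, 184, 295 and 256 in CTRL (log2 fold change −0.91 with a standard error of 0.22, adjusted p = 0.00884). All 7 separated from CTRL without overlap. *C3ar1* was at 1.55, 1.11, 1.58 and 2.8 CPM, overlapped with CTRL, and passed as lower only with the replicate block (adjusted p = 0.0141). Beside these values, 2 of 8 macrophage markers were lower with TGFβ, with a sum of 23.7 to 91.8 against 50.97 to 151 CPM, and of 8 fibroblast markers 2 were higher and 3 lower (51539 to 60844 against 27609.8 to 43313 CPM). Of 4 pericyte markers *Cspg4* was higher and *Kcnj8* and *Abcc9* were lower, with a sum of 647 to 1167 against 106 to 557 CPM, and *Tnnt2* of 3 cardiomyocyte markers was lower (3.13 to 14.5 against 14.9 to 111 CPM). Their part in the result was not tested.

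In iCre fibroblasts TGFβ lowered the same 7 genes, where 18.8% of all genes were lower (median log2 fold change −1.38 against −0.11 over all genes, a distance of −1.28). *C1s1* was at 40.98, 109, 40.4 and 52.99 CPM (log2 fold change −2.60, adjusted p = 8.43e-05) and *C1ra* at 36.2, 53.8, 30.7 and 29.5 CPM (log2 fold change −2.04, adjusted p = 1.6e-05), again the largest decreases. *Cd55* fell to 90.7, 55.7, 112 and 82.7 CPM (log2 fold change −1.84, adjusted p = 0.000277), with every library below every control. The other log2 fold changes were −1.40 for *Serping1*, −1.37 for *C3* and −0.69 for *C4b*. *Cfb* (log2 fold change −1.08, adjusted p = 0.0435) overlapped with CTRL, where it is already near 2 CPM, and did not pass without replicate 1, 3 or 4 (adjusted p = 0.118 to 0.236). Under the block *C3ar1*, at 1.49, 0.518, 1.8 and 2.1 CPM, passed too (adjusted p = 0.0133). Again 2 of 8 macrophage markers were lower (16.8 to 59.9 against 28.7 to 82.6 CPM), and 3 of 8 fibroblast markers were higher and 3 lower (42154 to 57049 against 17674 to 32239 CPM). The same pericyte markers moved as in LacZ cells (729.8 to 1919.5 against 287 to 896 CPM), and 2 of 3 cardiomyocyte markers were lower (*Tnnt2* and *Ryr2*; 3.7 to 13.1 against 7.31 to 44.7 CPM). Their part was not tested.

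bFGF, to which the cells had been exposed in their growth medium, lowered 3 of the 8 genes in LacZ cells, where 4.64% of all genes were lower. *C1s1* was at 151, 227, 131 and 160.4 CPM (log2 fold change −1.19 with a standard error of 0.22, adjusted p = 0.0082), *C1ra* at 112, 95.7, 83.05 and 101 CPM (log2 fold change −0.91 with a standard error of 0.14, adjusted p = 0.00432) and *C3* at 396, 173, 271 and 283 CPM (log2 fold change −0.96 with a standard error of 0.26, adjusted p = 0.0436). The proteases separated from CTRL, and *C3* overlapped in 1 library, replicate 1. Of 8 fibroblast markers *Thy1* was higher and *Col3a1* and *Dcn* were lower, and their sum did not overlap with CTRL (19510.3 to 26439.6 against 27609.8 to 43313 CPM), while no marker of another cell type passed. Their part was not tested. The number of calls moved when a replicate number was left out, to 5 without replicate 2, where 9.77% of all genes were higher and 8.46% lower, and to 1 (*C1ra*) without replicate 4, where 1.69% and 0.793% were. *C3* did not pass without replicate 3 or 4 and *C1s1* not without replicate 1 or 4 (adjusted p = 0.129, 0.185, 0.0558 and 0.0644). The replicate block called 6, of which *C3ar1* was higher (4.66, 2.31, 4.12 and 7.83 CPM, adjusted p = 0.00125) and *C4b* and *Serping1* joined the lower ones (adjusted p = 0.000195 and 0.000409), where 14.2% of all genes were higher and 13.1% lower.

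For bFGF in iCre cells *C3* alone passed, as lower, at 300.4, 276, 199 and 253 against 500.5, 338, 464 and 539.7 CPM (log2 fold change −0.83 with a standard error of 0.17, adjusted p = 0.0392), where 0.635% of all genes were lower. The call of *C3* was lost without replicate 1, 3 or 4 (adjusted p = 0.155, 0.323 and 0.243) and when all 40 libraries shared 1 estimate of the spread (0.0984). *C1s1* was at 137, 375, 116 and 117 CPM, where replicate 2 stood within the range of CTRL (380.2, 473, 329.5 and 310.1 CPM) and the other 3 below it. Without replicate 2, 5 genes passed (*C3*, *C4b*, *C1s1* and *C1ra* as lower and *C3ar1* as higher), where 5.59% of all genes were lower and 7.07% higher. In edgeR, 0 of all genes passed without replicate 1, 3 or 4 (2690, 2107 and 2557 at an unadjusted p under 0.05). With the replicate block 6 passed (*C1s1*, *C1ra*, *C3*, *C4b* and *Serping1* lower, *C3ar1* higher), with adjusted p from 7.27e-06 for *C1ra* to 0.0013 for *Serping1*, where 9.28% of all genes were higher and 7.41% lower. *C3ar1* was at 6.12, 2.18, 6.56 and 9.53 CPM against 3.63, 1.25, 1.99 and 4.03 in CTRL. Of all markers *Thy1* passed, as higher (fibroblast sum 12914 to 20469 against 17674 to 32239 CPM), and its part was not tested.

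**Figure D3:**
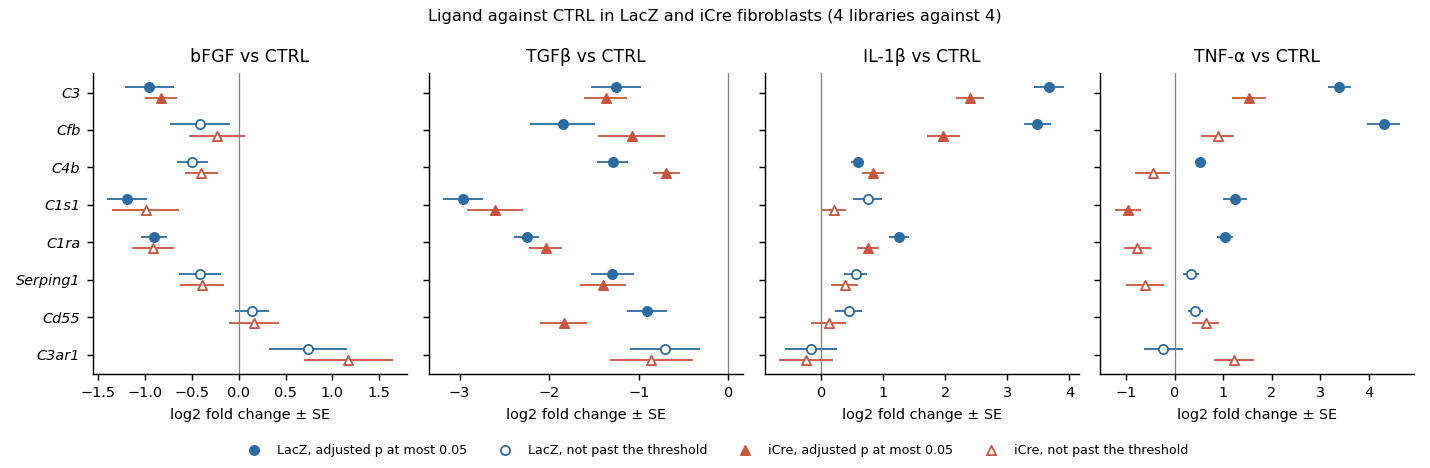
Log2 fold change against CTRL, with its standard error, for each ligand in LacZ (circles) and iCre (triangles), where filled symbols have an adjusted p of at most 0.05. With TGFβ every gene but *C3ar1* is filled and left of 0 in both viruses, and with TNF-α the LacZ and iCre symbols of *Cfb*, *C3*, *C1s1* and *C1ra* lie apart. The scale of the horizontal axis differs between panels.

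To ask what TAK1 deletion does to these responses, the ligands were compared with CTRL in iCre cells and iCre was compared with LacZ at each ligand. IL-1β still raised 4 of the 8 genes in iCre fibroblasts, where 9.38% of all genes were higher. *C3* was at 3284, 1842, 2538 and 1926 CPM, 5.28-fold over the iCre control (log2 fold change 2.40 with a standard error of 0.22, adjusted p = 0.000225), and *Cfb* at 9.48, 6.4, 6.97 and 8.45 CPM, 3.91-fold over 1.6, 1.25, 2.85 and 2.36 CPM (log2 fold change 1.97 with a standard error of 0.27, adjusted p = 0.00133). *C4b* was at 229, 156, 221 and 184 CPM (log2 fold change 0.83 with a standard error of 0.18, adjusted p = 0.00992) and *C1ra* at 329.8, 285, 246 and 181 CPM (log2 fold change 0.75 with a standard error of 0.17, adjusted p = 0.0151). These 2 smaller calls were lost without replicate 3 and after a correction for GC content (adjusted p = 0.0517 and 0.0509), that of *C1ra* was also lost without replicate 1 (0.06), and the correction together with the block kept both (adjusted p = 3.57e-07 and 4.23e-07). *C1s1*, at 423 ± 119.8 against 373 ± 72.95 CPM, did not pass in either fit. *Serping1*, at 858 ± 228 against 671 ± 165 CPM, passed as higher only with the block (adjusted p = 5.96e-06), and *Cd55*, at 330.3 ± 101 against 309 ± 90.8 CPM, only with the block and GC correction together (adjusted p = 0.000931). None of the cell type markers passed with IL-1β in iCre cells (fibroblast sum 20425 to 31876, macrophage sum 34.4 to 111 CPM).

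Set directly against LacZ with IL-1β, iCre cells held less *Cfb*, *C3*, *Serping1* and *C1ra*, and 4 of 8 genes were called lower where 8.98% of all genes were. *Cfb* fell from 31.7, 36.9, 23.3 and 26.7 to 9.48, 6.4, 6.97 and 8.45 CPM, 3.83 times lower (log2 fold change −1.94 with a standard error of 0.18, adjusted p = 0.000117). *C3* fell from a mean of 6977 to 2398 CPM, 2.94 times lower (log2 fold change −1.56 with a standard error of 0.22, adjusted p = 0.00122), and the highest iCre library (3284 CPM) lay far below the lowest LacZ library (6219 CPM). *Serping1* was at 1200.2, 744, 742 and 745 CPM against 1645, 1211, 1337 and 1756 in LacZ (log2 fold change −0.81, adjusted p = 0.019). Its replicate 1 stood apart from the other 3 iCre libraries, which were within 3 CPM of each other. *C1ra* differed by −0.77 (adjusted p = 0.0219). Neither *C1ra* nor *Serping1* passed without replicate 3 (adjusted p = 0.0818 and 0.109), nor *Serping1* without replicate 4 (0.122) or in the fit of all 40 libraries (0.0697). With the block *C1s1* joined them (mean 423 against 642 CPM, adjusted p = 4.75e-05), 5 of 8 where 14.9% of all genes were lower.

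*C4b*, *Cd55* and *C3ar1* passed neither with nor without the block between iCre and LacZ cells with IL-1β. GC correction together with the block called *C4b* lower (log2 fold change −0.34, adjusted p = 0.012), which made 6 of 8 where 12.8% of all genes were lower. *C4b* was at 197 ± 33.7 against 211 ± 21.1 CPM and *Cd55* at 330.3 ± 101 against 327 ± 87.7 CPM, with overlapping libraries. Beside these results, 3 of 8 fibroblast markers were lower in iCre with IL-1β (*Col1a1*, *Col3a1* and *Dcn*), and their sum ranged over 20425 to 31876 CPM against 34730.2 to 66859.9 CPM in LacZ. Of 4 pericyte markers 2 were higher (*Kcnj8* and *Cspg4*), with a sum of 398 to 948 against 255 to 772 CPM, and no macrophage marker of 8 passed (34.4 to 111 against 49.4 to 169 CPM). Of 5 endothelial markers 1 was lower (1.76 to 6.04 against 1.69 to 4.86 CPM), and of 3 cardiomyocyte markers 1 was higher (2.24 to 16.7 against 0.543 to 1.92 CPM). Their part in the result was not tested. The IL-1β effect itself differed between the viruses for *C3* (interaction, a difference of log2 fold changes of −1.29, standard error 0.32, adjusted p = 0.0194) and *Cfb* (−1.53, standard error 0.35, adjusted p = 0.0115), 2 of 8 lower where 4.95% of all genes were. Neither passed without replicate 3 (adjusted p = 0.167 and 0.12) or 4 (0.171 and 0.0918), nor *C3* in the fit of all 40 libraries (0.0603), and with the replicate block 4 passed, *C1s1* and *C1ra* among them (adjusted p = 0.00449 and 0.00246), where 8.98% of all genes were lower.

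With TNF-α, both C1 proteases were among the genes that iCre cells held at lower levels. Against the iCre control only *C3* passed as higher, at 2258, 890.5, 1405 and 646 CPM (log2 fold change 1.53 with a standard error of 0.35, adjusted p = 0.00923), and *C1s1* passed as lower, at 292, 186, 158 and 109 against 380.2, 473, 329.5 and 310.1 CPM (log2 fold change −0.97 with a standard error of 0.27, adjusted p = 0.0233), where 14.7% of all genes were higher and 12.3% lower. *C1s1* thus rose with TNF-α in LacZ cells and fell in iCre cells. *Cfb*, which had risen most in LacZ cells, was at 5.49, 3.78, 3.08 and 2.24 against 1.6, 1.25, 2.85 and 2.36 CPM and passed neither with nor without the replicate block. DESeq2 called it higher (adjusted p = 0.0401), and also called *C3ar1* higher (0.015) and *C1ra* lower (0.0245). The calls of *C3* and *C1s1* were lost without replicate 3 (adjusted p = 0.07 for *C3* and 0.107 for *C1s1*), and that of *C1s1* also without replicate 2 (0.0809). Without replicate 1, 4 passed (*C3* as higher, *C1s1*, *C1ra* and *Serping1* as lower), where 13.6% of all genes were higher and 11.3% lower. With the replicate block 7 passed, *C3*, *Cd55* and *C3ar1* as higher (adjusted p = 0.00141, 0.00181 and 0.0014) and *C1s1*, *C1ra*, *Serping1* and *C4b* as lower (adjusted p = 0.000575, 0.00189, 0.00393 and 0.0337), where 18.9% of all genes were higher and 17.3% lower. Among the markers *Thy1* was higher and *Col3a1* lower of 8 for fibroblasts (10069.5 to 18507 against 17674 to 32239 CPM), *Cspg4* higher and *Kcnj8* and *Abcc9* lower of 4 for pericytes (302 to 1156 against 287 to 896 CPM), *Cdh5* higher and *Kdr* lower of 5 for endothelium (2.54 to 13.2 against 1.39 to 7.99 CPM), and *Actn2* lower of 3 for cardiomyocytes (0.856 to 20.2 against 7.31 to 44.7 CPM). Their part was not tested.

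In iCre against LacZ cells with TNF-α, 6 of the 8 genes were lower and *C3ar1* was higher, where 12.6% of all genes were lower and 14.8% higher. *Cfb* was 14.3 times lower, at 5.49, 3.78, 3.08 and 2.24 against 36.4, 91.3, 40.8 and 44.4 CPM (log2 fold change −3.84 with a standard error of 0.37, adjusted p = 0.000166). *C1s1* was 4.81 times lower (log2 fold change −2.27 with a standard error of 0.32, adjusted p = 0.000885), its highest iCre library (292 CPM) far below the lowest LacZ library (675 CPM). *C3* was 4.39 times lower (log2 fold change −2.13 with a standard error of 0.36, adjusted p = 0.00211), although the iCre libraries ranged widely, with replicate 1 at the top and replicate 4 at the bottom. *C1ra*, at 150.1, 69.04, 85.8 and 53.1 CPM against 409.6, 481, 312 and 321 in LacZ, was 4.18 times lower (log2 fold change −2.06 with a standard error of 0.31, adjusted p = 0.00105). None of these 4 genes overlapped between the viruses.

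*Serping1* was at 826, 193, 330.0 and 366 CPM against 1310.0, 1071, 1246 and 1491 in LacZ (log2 fold change −1.55 with a standard error of 0.38, adjusted p = 0.0122) and *C4b* at 133, 33.8, 92.2 and 59.7 against 197, 197, 227 and 193 CPM (log2 fold change −1.33 with a standard error of 0.34, adjusted p = 0.0157). For both, replicate 1 was highest and replicate 2 lowest among the iCre libraries. Neither passed without replicate 3 (adjusted p = 0.0852 and 0.0819) or 4 (0.0898 and 0.089). *C3ar1* was at 5.04, 5.04, 4.3 and 10.6 against 1.87, 1.43, 2.4 and 4.05 CPM (log2 fold change 1.37 with a standard error of 0.38, adjusted p = 0.0226), with replicate 4 far above the others, and did not pass without replicate 1 or 3 (adjusted p = 0.0692 and 0.0746). *Cd55*, at 587, 309, 588 and 395 against 315, 309, 388 and 294 CPM, overlapped and did not pass (adjusted p = 0.0787), but passed as higher with the block (0.0209), with GC correction alone (0.0321) and without replicate 2 (0.0217).

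Markers moved with this comparison too. Of 8 fibroblast markers 5 were lower (*Col1a1*, *Col1a2*, *Col3a1*, *Pdgfra* and *Dcn*) and *Thy1* was higher, and their sum ranged over 10069.5 to 18507 CPM in iCre against 23346 to 30702 CPM in LacZ. Of 4 pericyte markers *Rgs5*, *Kcnj8* and *Cspg4* were higher (302 to 1156 against 71.9 to 368 CPM), and of 8 macrophage markers *Cd68* was higher (34.9 to 117 against 42.3 to 161 CPM). One of 3 cardiomyocyte markers was higher too (0.856 to 20.2 against 1.08 to 6.65 CPM). Their part in the lower complement levels was not tested. GC content moved with it as well. With both a GC correction and the block, the log2 fold changes were −4.02 for *Cfb*, −2.51 for *C3*, −2.33 for *C1s1* and −2.32 for *C1ra*, each at least as large as before.

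The TNF-α effect differed between the viruses for 4 of the 8 genes, all lower in iCre, where 7.7% of all genes were. The difference of log2 fold changes was −3.44 for *Cfb* (standard error 0.49, adjusted p = 0.000223), −2.21 for *C1s1* (standard error 0.40, adjusted p = 0.00128), −1.88 for *C3* (standard error 0.45, adjusted p = 0.00877) and −1.82 for *C1ra* (standard error 0.35, adjusted p = 0.00223). That of *C3* did not pass without replicate 3 or 4 (adjusted p = 0.0848 and 0.0698), and the other 3 passed without any 1 replicate number. With the replicate block *C4b* and *Serping1* were lower too (adjusted p = 0.0143 and 0.00703) and *C3ar1* was higher (adjusted p = 0.00221), 7 of 8 in all, where 25.1% of all genes were called.

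Without an inflammatory ligand, none of the 8 genes differed between the viruses in the fit without the replicate block, while the block called some. None of the 8 genes was called between iCre and LacZ in CTRL, where 0.0754% of all genes were, none with bFGF, where 0% were (2585 genes at an unadjusted p under 0.05), and none with TGFβ, where 8.37% were. In CTRL *C3* was at 500.5, 338, 464 and 539.7 CPM in iCre and 784, 535, 381 and 507 in LacZ, which overlapped. *Serping1* was at 902, 511, 636 and 636 CPM in iCre against 1217, 748, 979 and 1130.4, and overlapped through replicate 1 of iCre and replicate 2 of LacZ. At an unadjusted p under 0.05 in edgeR, 2 of the 8 genes differed in CTRL (*C4b* and *Serping1*), 1 with bFGF (*Serping1*) and 2 with TGFβ (*Serping1* and *Cd55*), and DESeq2 called 0 in each. The replicate block called *Serping1* lower in all 3 (adjusted p = 1.44e-05, 0.000925 and 0.00507), *C4b* and *C1ra* lower in CTRL (0.0048 and 0.0129), *Cd55* higher in CTRL and with bFGF (0.0222 and 0.00433) and lower with TGFβ (0.000209), and *C3* lower with TGFβ (0.027). In these 3 comparisons 14.5%, 13.9% and 20.8% of all genes were called with the block. Without replicate 2, *Serping1* and *Cd55* passed as lower with TGFβ in the fit without the block as well, where 8.45% of all genes were lower. Macrophage markers summed to 54.7 ± 29.3 CPM in iCre against 95.3 ± 43.9 in LacZ in CTRL. With bFGF the sums were 39.4 ± 21.9 against 72.1 ± 29.1 CPM, and with TGFβ 36.5 ± 20.4 against 50.8 ± 28.9 CPM. The fibroblast sum in CTRL was 22960 ± 6499 against 35940 ± 6602 CPM. No macrophage marker passed without the block, and the part of the markers was not tested.

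Among the 8 genes only *Cd55* was called, with the block, for a TGFβ effect that differed between the viruses. It fell from a mean of 243 to 129 CPM in LacZ and from 309 to 85.4 CPM in iCre, a difference of log2 fold changes of −0.96 that did not pass without the block (standard error 0.37, adjusted p = 0.2) and passed with it (0.00148) or without replicate 2, where 4.51%, 8.04% and 5.27% of all genes were called in the 3 fits. At an unadjusted p under 0.05 in edgeR, 2 of the 8 genes (*C4b* and *Cd55*) had a TGFβ effect that differed, and DESeq2 called 0. For bFGF 0 genes were called in edgeR with or without the block, 765 of all genes and 0 of the 8 had an unadjusted p under 0.05, and DESeq2 called 0 of the 8.

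Ordered by level over the 10 groups, the LacZ groups with IL-1β and TNF-α held the first 2 places for *C3*, *Cfb*, *C4b*, *C1s1*, *C1ra* and *Serping1*. *C3* had its highest mean in LacZ with IL-1β (6977 CPM) and with TNF-α (5802), whose libraries overlapped, then, without overlap, in iCre with IL-1β (2398) and TNF-α (1300.0), and below them every neighbour in the order overlapped down to iCre with TGFβ (176). *Cfb* began with LacZ TNF-α (53.2 CPM) and LacZ IL-1β (29.7), which overlapped, and then stepped without overlap to iCre IL-1β (7.83) and iCre TNF-α (3.65). *C1s1* and *C1ra* ran from LacZ with TNF-α or IL-1β (911 and 439 CPM at the top) to the TGFβ groups at the bottom (49.2 and 37.6 CPM), which stood apart from the next group above them. *Cd55* and *C3ar1* had their highest means in iCre with TNF-α (469.9 and 6.24 CPM), where the neighbouring groups overlapped, and their lowest in iCre with TGFβ (85.4 and 1.48 CPM).

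The ratio of the partner proteases changed less than their levels. In CPM, not per length, *C1s1* was at 2.09 ± 0.446 times *C1ra* (SD, n = 4) in LacZ CTRL, 2.36 ± 0.347 with TNF-α, 1.46 ± 0.342 with IL-1β and 1.28 ± 0.334 with TGFβ. The CPM ratio of *C3* to *C4b*, whose proteins are related in sequence, was 3.93 ± 1.14 in LacZ CTRL, 33.4 ± 5.91 with IL-1β and 28.7 ± 6.32 with TNF-α, and 12.03 ± 1.65 with IL-1β in iCre cells. Most of this change was in *C3*, since *C4b* had a log2 fold change under 1 in each of these comparisons.

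Over the 10 group means of log2 CPM, which share culture and library preparation, *C1s1* and *C1ra* had the highest correlation among the 8 genes (Pearson's r = 0.98, and 0.96 over 40 libraries), followed by *C4b* with *C1ra* (0.97) and *C3* with *Cfb* (0.97). *C3ar1* followed none of the secreted components, with r from −0.13 to 0.13, and was closest to *Cd55* (0.73). Of 10774 genes whose mean reached 5 CPM, those most like *C3* over the 10 groups were *Ccl8* (0.98), *Cfb* (0.97) and *Fbxo6* (0.96), and those most like *Cfb* included *Ccl8* (0.99) and *Tlr2* (0.99). *Ccl8*, a chemokine gene, led both lists. Nearest to *C1s1* were *Grn* (0.98), *Mfsd7a* (0.98) and *Slc31a2* (0.98), to *C1ra* *Mfsd7a* (0.98), *C1s1* (0.98) and *S1pr3* (0.97) and to *C4b* *C1ra* (0.97), *S1pr3* (0.93) and *Ifitm1* (0.93). *Serping1* was most like *Irak3* (0.97), *Dtx4* (0.97) and *Zfp36l1* (0.96), *Cd55* most like *Sestd1* (0.98), *Laptm4b* (0.96) and *Jade2* (0.96), and *C3ar1* most like *Rfc4* (0.96), *Sgo2a* (0.94) and *Ckap2* (0.94), of which *Rfc4*, *Sgo2a* and *Ckap2* are genes of DNA replication and cell division.

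*C3ar1* and *Serping1* also varied with the macrophage markers between libraries of a group. The 8 macrophage markers summed to 50.97 to 151 CPM in LacZ CTRL and 28.7 to 82.6 CPM in iCre CTRL, of which *Lyz2* was the largest part, and *Fcgr1* and *Cx3cr1* reached 0 in some libraries. After group means were removed, the correlation with this sum over 40 libraries was 0.82 for *C3ar1* and 0.75 for *Serping1*, against 0.43 for *Cd55*, 0.41 for *C3*, 0.29 for *C4b*, −0.09 for *Cfb*, −0.13 for *C1ra* and −0.40 for *C1s1*. The marker sum followed the replicate number, with replicate 2 lowest in 9 of 10 groups and replicate 4 highest in 6 and replicate 1 in the other 4, so these correlations rest on 4 sets of paired libraries and not on 40 independent ones. *C3ar1*, also known from macrophages, ranged from 0.518 to 10.6 CPM over the 40 libraries, and its RPKM in LacZ CTRL was the lowest of the 8. The part of the cells that carry these markers in either gene's level was not tested.

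**Figure D4:**
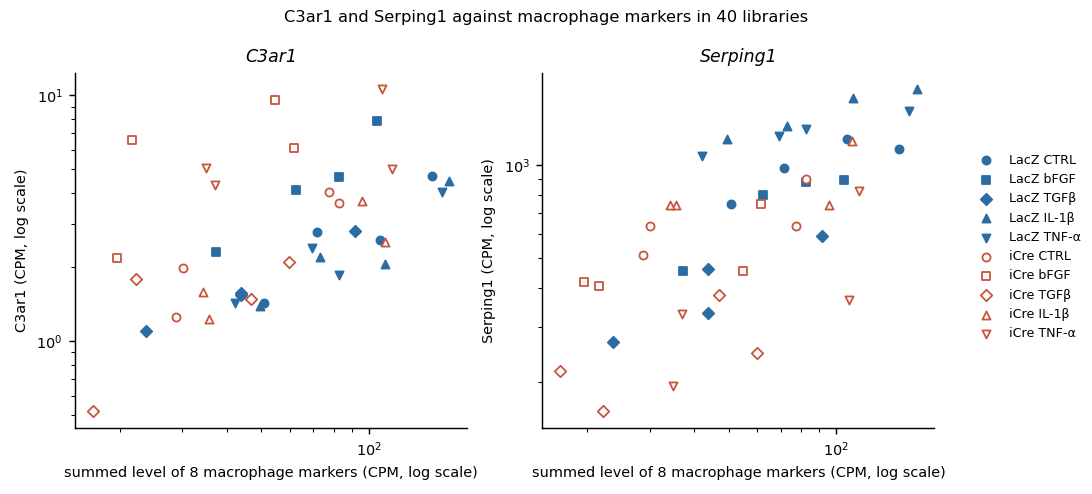
CPM of *C3ar1* (left) and *Serping1* (right) against the summed CPM of 8 macrophage markers in 40 libraries, both axes on a log scale, with a symbol for each ligand and filled symbols for LacZ. Marker sums range from 16.8 to 169 CPM, and within groups the correlation over 40 libraries, which form 4 sets of paired replicates, is 0.82 for *C3ar1* and 0.75 for *Serping1*.

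Beyond the 8 genes, 48 other complement genes were listed by their place in the pathway, 42 were tested, and 29 reached a mean of 1 CPM in some group. *Fcnb* had 0 counts in every library, and *Cfd*, *Mbl1*, *C8a* and *C8b* had fewer than 10 in all. Of the 42, IL-1β raised 5 (11.9%) and lowered 6 (14.3%) in LacZ cells, near the 11.1% and 9.55% of all genes. TNF-α raised 8 (19.05%) and lowered 9 (21.4%), against 10.9% and 10.4%. TGFβ raised 1 (2.38%) and lowered 17 (40.5%), against 17.5% and 19.3%, and bFGF raised 1 (2.38%) and lowered 4 (9.52%), against 7% and 4.64%. In percentage points, the share called lower with TGFβ was thus the one farthest from that of all genes. Under the block IL-1β raised 11 (26.2%) and lowered 12 (28.6%) (all genes 16.3% and 17.3%), TNF-α 10 (23.8%) and 17 (40.5%) (17.2% and 18.4%), TGFβ 2 (4.76%) and 22 (52.4%) (19.6% and 22.5%) and bFGF 2 (4.76%) and 8 (19.05%) (14.2% and 13.1%).

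Between iCre and LacZ cells with IL-1β, 1 (2.38%) of the 42 were higher and 7 (16.7%) lower, where 7.14% and 8.98% of all genes were, and with the block 3 (7.14%) and 16 (38.1%), where 14.6% and 14.9% were. With TNF-α 1 (2.38%) were higher and 11 (26.2%) lower, where 14.8% and 12.6% of all genes were, and with the block 4 (9.52%) and 16 (38.1%), where 17.1% and 15.1% were. Against CTRL in LacZ cells, the medians of the log2 fold changes of the 42 were −0.12 with IL-1β and −0.39 with TNF-α, against −0.10 and −0.08 over all genes, and −0.92 with TGFβ against −0.17. Among the classical genes *C2*, the partner of C4, lies beside *Cfb* on the chromosome. Its level was 5.2 ± 1.04 CPM (SD, n = 4) in LacZ CTRL, 10.5 ± 3.0 with IL-1β and 23.8 ± 9.13 with TNF-α (log2 fold change 2.19, adjusted p = 0.000353), and at 1.5 ± 0.709 in iCre cells with TNF-α (log2 fold change −3.96, adjusted p = 0.00015, against LacZ), and 42.8% of its exon bases are shared with *Gm20547*.

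Copies of the C1 proteases were called higher too. *C1rb* went from 0.0616 ± 0.0337 to 4.88 ± 1.81 CPM with IL-1β in LacZ cells (log2 fold change 6.18, adjusted p = 1.31e-05) and was at 0.423 ± 0.27 in iCre cells (log2 fold change −3.50, adjusted p = 0.00102, against LacZ), and *C1s2* from 0.614 ± 0.067 to 3.07 ± 1.36 CPM (log2 fold change 2.33, adjusted p = 0.00124). As near-identical copies of *C1ra* and *C1s1*, which were at 439 and 642 CPM in the same group, they may hold reads of those genes, which was not tested. With TNF-α in LacZ cells *C1rb* was at 0.529 ± 0.358 CPM beside *C1ra* at 381 CPM. *C1s2* was there at 3.48 ± 1.83 CPM beside *C1s1* at 911 CPM. *C1rl*, a related protease gene, rose with TNF-α from 28.2 ± 4.28 to 45.7 ± 7.89 CPM (log2 fold change 0.70, adjusted p = 0.00834; without replicate 4, adjusted p = 0.0533). The C1q genes, which encode the part of C1 that recognises its targets and are known from macrophages, were at 6.56, 7.55 and 6.64 CPM in LacZ CTRL, and none of the 3 was called in any of the 17 comparisons by the fit of all replicates without the block. With the block all 3 were lower with TGFβ in LacZ cells (adjusted p = 0.00214, 9.2e-05 and 0.00021) and with TNF-α (0.00192, 0.000364 and 0.000688), and lower in iCre than in LacZ in CTRL (0.000532, 0.000328 and 0.00156) and with bFGF (0.000434, 0.000179 and 0.000236). In 5 other comparisons the block called 1 of the 3, lower in each but IL-1β in iCre cells, where *C1qb* was higher. The mean sum of macrophage markers in LacZ cells was 95.3 CPM in CTRL, 50.8 with TGFβ and 88.8 with TNF-α. In iCre CTRL it was 54.7 CPM, and with bFGF it was 39.4 CPM in iCre against 72.1 in LacZ. Its part in the C1q levels was not tested.

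Among the regulators, *Cd59a*, which blocks the final pore, fell with IL-1β (log2 fold change −0.92, adjusted p = 0.00168) and TNF-α (log2 fold change −0.93, adjusted p = 0.00073), while *Cr1l*, the mouse gene of Crry, rose with TNF-α (log2 fold change 0.44, adjusted p = 0.0328) and TGFβ (log2 fold change 0.57, adjusted p = 0.00415). The call with TNF-α was lost without replicate 1, 3 or 4 (adjusted p = 0.0555, 0.144 and 0.179). *Cr1l* was lower in iCre than in LacZ with IL-1β (log2 fold change −0.62, adjusted p = 0.00798), a call that was lost without replicate 1, 3 or 4 (0.0517, 0.0611 and 0.0514) and after GC correction, alone or with the block (log2 fold change 0.05 and 0.07). *C4bp*, a regulator of C4b, rose with TNF-α from 0.398 ± 0.175 to 2.35 ± 0.575 CPM (log2 fold change 2.55, adjusted p = 0.0011).

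In the lectin pathway, *Colec12*, a collectin at 674 ± 119.9 CPM in LacZ CTRL, fell with TGFβ to 139 ± 23.2 CPM (log2 fold change −2.26, adjusted p = 3.86e-06) and with TNF-α to 345 ± 31.6 CPM (log2 fold change −0.96, adjusted p = 0.000775). With IL-1β in LacZ cells it was at 384 ± 46.8 CPM, also below every control (332 to 439 against 553 to 814 CPM). In iCre cells it was at 892 ± 101 CPM in CTRL and at 648 ± 108 CPM with IL-1β. Between the viruses with IL-1β it was higher in iCre (log2 fold change 0.74, adjusted p = 0.00577, and 0.0694 without replicate 3). *Masp1*, the lectin counterpart of the C1 proteases, rose with bFGF from 24.5 ± 12.2 to 85.6 ± 57.5 CPM (log2 fold change 1.83, adjusted p = 0.0275), where *C1s1* and *C1ra* fell, a call that was lost without replicate 1, 3 or 4 (adjusted p = 0.073, 0.129 and 0.117). With TNF-α it was at 32.6, 188, 42.98 and 35.2 CPM in iCre and 9.36, 24.4, 13.9 and 13.6 CPM in LacZ cells, higher in iCre (log2 fold change 2.31, adjusted p = 0.0156), where *C1s1* and *C1ra* were lower. Replicate 2 of iCre stood far above the others, without that number the log2 fold change was 1.59, and without replicate 3 the call was lost (adjusted p = 0.0635). Of the terminal genes *C7* was at 9.7 ± 4.57 CPM in LacZ CTRL and fell with TNF-α (log2 fold change −1.20, adjusted p = 0.0124), which did not pass without replicate 1 (adjusted p = 0.052) or in the fit of all 40 libraries (0.0686), and *Hc*, the gene of C5, was at 2.09 ± 0.618 CPM and was called in no comparison, with or without the block. *C5ar1*, the receptor for the fragment of C5, was at 2.01 ± 1.1 CPM and was called only with the block, as lower with TGFβ in LacZ (0.974 ± 0.547 CPM, adjusted p = 0.00519) and iCre cells (0.0214) and in iCre against LacZ with each ligand and in CTRL (0.00259 to 0.0245). The mean macrophage marker sum was also lower in iCre, at 54.7 against 95.3 CPM in CTRL and 39.4 against 72.1 with bFGF. It was 36.5 against 50.8 CPM with TGFβ, 69.2 against 101 with IL-1β and 74.5 against 88.8 with TNF-α. Its part in the level of *C5ar1* was not tested.

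**Figure D5:**
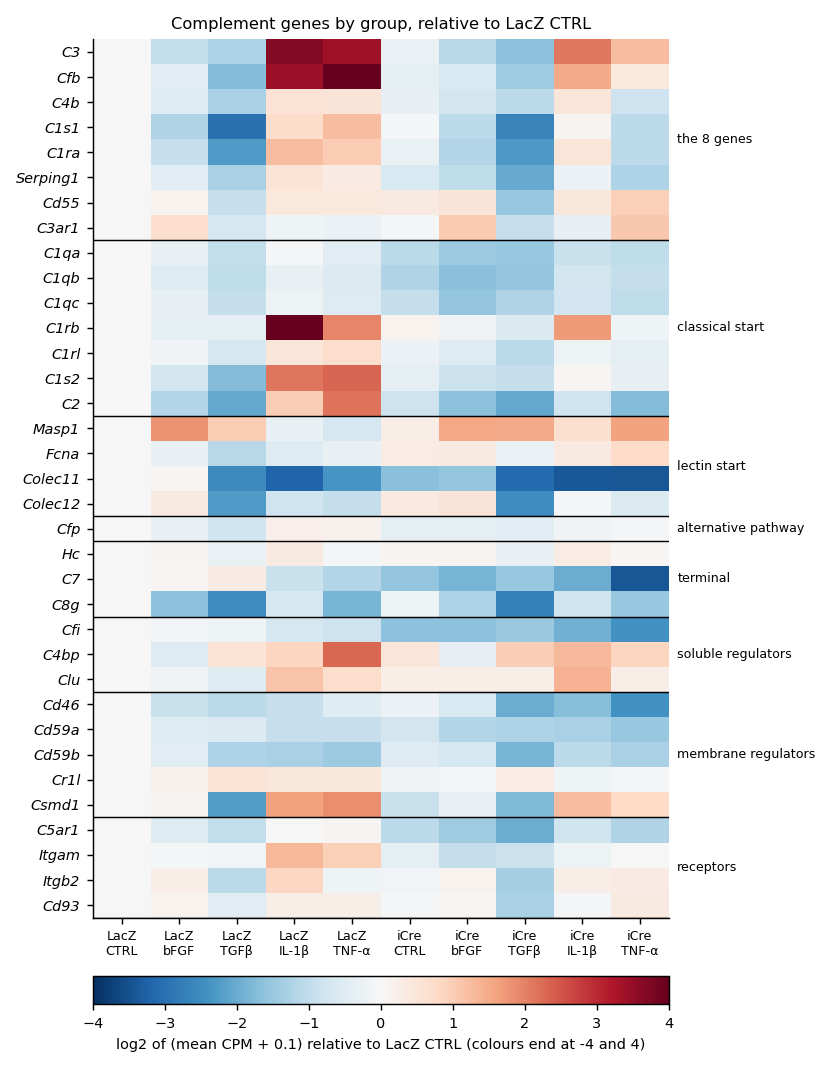
Log2 of (mean CPM + 0.1) of each group relative to LacZ CTRL, for the 8 genes and other complement genes that reached 1 CPM, ordered by role. *C3* and *Cfb* are red with IL-1β and TNF-α in LacZ and paler in iCre, *C2*, *C1rb* and *C1s2* are red with both in LacZ and lie below LacZ CTRL with TNF-α in iCre, *C1s1* and *Colec12* are blue with TGFβ, and the colour of genes near 0.1 CPM is damped by the added 0.1.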

How the data were processed

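Poly-A RNA of 40 samples was sequenced with single reads by the authors. Per the labels and the study's methods, reads were checked with FastQC (0.10.1 in the submitters' processing notes), aligned to mm10 with STAR and counted per gene with HTSeq 0.10.0. The deposited values are raw counts for 55414 Ensembl identifiers, 25360947 to 66160732 per library. Neither the annotation release nor whether counting used strand is given in the sources used here. Blank or summary lines were absent, and no column was left unused. Coordinates and overlaps came from GENCODE M21 (GRCm38), which held 52133 of the identifiers.

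Genes with at least 10 counts over all libraries (25210) were tested with edgeR 4.0.16 (quasi-likelihood, TMM normalization) in R 4.3.3, over the 2 groups compared (8 libraries) or the 4 groups of an interaction (16 libraries), with Benjamini-Hochberg adjustment in each of 17 comparisons at 0.05. CPM used TMM-scaled library sizes, and RPKM divided CPM by exon length. Alternatives were RLE normalization, DESeq2 1.42.0 (which the study used), filterByExpr and no filter, each replicate number left out, the replicate number as a block, all 40 libraries fitted together, and a correction for GC content, alone and with the block. On simulated counts for 25210 genes, the test of TNF-α in LacZ cells recovered 170 of 200 changed genes (85%) with 10 false calls, and that of the TNF-α interaction 151 (75.5%) with 13. The simulated libraries were independent, without pairing or a GC trend, and far fewer genes changed than were called in the data. These rates thus check the code and do not describe the tests on these data.

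The labels number replicates in every group. After removal of group means, libraries of the same number in different groups had a mean correlation of 0.546 (180 pairs, 13090 genes) against −0.155 for different numbers (540 pairs), and over the 13 pairs of groups compared the lowest was 0.300, so the numbers were taken to pair the samples.

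The 8 members, the other complement genes and the marker lists were chosen with earlier results of these data known. Other complement genes were described if a group mean reached 1 CPM, and values of some genes are not reported here.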

Additional observations from a re-analysis of the deposited data

Results flagged for a closer look

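In 7 of 80 groups of 4 libraries (8 genes in 10 groups) 1 library stood far from the others by Dixon's test, where chance marks about 1 in 20 groups. *Cfb* with TNF-α in LacZ cells was at 91.3 CPM in replicate 2 against 36.4 to 44.4 in the others, and *C4b* in the same group was at 227 CPM in replicate 3 against 193 to 197. With bFGF in iCre cells, *C1s1* was at 375 CPM in replicate 2 against 116 to 137, *C4b* at 63.5 CPM in the same library against 89.3 to 93.2, and *Serping1* at 747 CPM in replicate 1 against 406 to 456. *Serping1* was also highest in replicate 1 with IL-1β in iCre cells, at 1200.2 CPM against 742 to 745. The macrophage marker sum was 61.7 CPM in the first of these 2 libraries and 111 CPM in the second, in both the highest of its group, and its part was not tested. *C3ar1* was at 10.6 CPM in replicate 4 with TNF-α in iCre cells against 4.3 to 5.04 in the others.

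The response to a ligand differed between LacZ and iCre cells, by the interaction test in edgeR, for 6 of 32 pairs of a gene and a ligand. Of all genes, 0% were called for bFGF, 4.51% for TGFβ, 7.71% for IL-1β and 16.1% for TNF-α. With IL-1β the difference of log2 fold changes was −1.29 for *C3* and −1.53 for *Cfb*. With TNF-α it was −3.44 for *Cfb*, −2.21 for *C1s1*, −1.88 for *C3* and −1.82 for *C1ra*. The calls of *C3* and *Cfb* with IL-1β and of *C3* with TNF-α were each lost without replicate 3 and also without replicate 4.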

How the results depend on the processing

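Over 88 pairs of a member and a comparison that were called with or without the replicate block, 905 values under 12 alternatives kept direction and side of the threshold, 113 passed where they had not, 38 no longer passed, and 0 reversed. Of 1032 values for the 86 pairs not called without the block, 43 changed sign, none in a pair called with it. RLE normalization, filterByExpr and no filter moved no count of members called by over 1.5 times.

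With the replicate block, alone and with GC correction, the members called became 6 of 8 for bFGF in LacZ (3 before) and in iCre cells (1 before), 7 for IL-1β in LacZ (4) and for TNF-α in iCre cells (2). Between iCre and LacZ they became 4 in CTRL and 3 with TGFβ (0 before in both), and 2 with bFGF (0 before; 3 with GC correction as well, 13.7% of all genes against 13.9% with the block alone). For interactions they became 1 for TGFβ (0), 4 for IL-1β (2) and 7 for TNF-α (4). The share of all genes called rose with the block alone too. For the ligand comparisons, in the order given, it went from 11.6% to 27.3%, 2.42% to 16.7%, 20.7% to 33.5% and 27.04% to 36.1%. Between iCre and LacZ it went from 0.0754% to 14.5% in CTRL, 8.37% to 20.8% with TGFβ and 0% to 13.9% with bFGF. For the interactions it went from 4.51% to 8.04%, 7.71% to 16.9% and 16.1% to 25.1%. The block changed no other call of a member than those given with their comparisons.

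DESeq2 called 2 members for bFGF in iCre cells (*C1ra* joined *C3*), where it called 7.93% of all genes (2.42% in edgeR), and 5 for TNF-α in iCre cells (*Cfb*, *C3ar1* and *C1ra* joined), with 32.1% of all genes (27.04% in edgeR). There GC correction alone and the fit of all 40 libraries each called 4, with 24.3% and 31.9% of all genes. GC correction alone called 2 for IL-1β in iCre cells, with 9.78% of all genes (16.3% before), and the fit of all 40 libraries 1 for the IL-1β interaction, with 7.82% (7.71% before). The cause was not tested.

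Leaving out 1 replicate number at a time, from every group compared, the members called ranged as follows, with the share of all genes called over the same 4 fits in parentheses. With bFGF they were 1 to 5 (1.32 to 18.2%) in LacZ and 0 to 5 (0 to 12.7%) in iCre cells. With IL-1β they were 4 to 7 (9.22 to 23.4%) in LacZ and 2 to 4 (6.85 to 18.1%) in iCre cells, and with TNF-α in iCre cells 0 to 4 (13.96 to 25.4%). Between iCre and LacZ they were 0 to 2 (2.01 to 12.5%) with TGFβ, 2 to 4 (6.18 to 16.6%) with IL-1β and 4 to 8 (12.99 to 27.1%) with TNF-α. For the interactions they were 0 to 1 (1.28 to 5.27%) with TGFβ and 0 to 2 (2.37 to 6.85%) with IL-1β. No fit left out a single library.

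*Cfb* and *C3ar1*, near 3 CPM at rest, held fewer counts than the other 6 genes, and the effect of depth was not tested.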

Other observations

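*Clu*, the gene of clusterin, which binds the terminal complex, had a level of 76.7 ± 53.7 CPM (SD, n = 4) in LacZ CTRL, 171 ± 63.3 with IL-1β (log2 fold change 1.18, adjusted p = 0.0697) and 125 ± 49.8 with TNF-α (log2 fold change 0.72, adjusted p = 0.278), and of 203 ± 135 with IL-1β in iCre cells (log2 fold change 1.15, adjusted p = 0.215, against iCre CTRL). In these 3 comparisons it did not pass in the fit of all replicates without the block, and passed as higher with the block (adjusted p = 5.39e-13, 7.71e-07 and 1.22e-34). *Colec11*, a collectin gene, was at 10.5 ± 5.78 CPM in LacZ CTRL and at 1.06 ± 0.611 CPM with IL-1β (log2 fold change −3.31, adjusted p = 0.0073), 1.98 ± 0.989 with TNF-α (log2 fold change −2.40, adjusted p = 0.02) and 1.69 ± 0.866 with TGFβ (log2 fold change −2.62, adjusted p = 0.00642). The call with IL-1β was lost without replicate 3 or 4 (adjusted p = 0.0532 and 0.0536), and that with TNF-α without replicate 1, 3 or 4 (0.0944, 0.0868 and 0.109). *Cfi*, the gene of factor I, which cleaves C3b, was at 5.52 ± 1.54 CPM with TNF-α in LacZ and 1.75 ± 1.16 in iCre cells (log2 fold change −1.63, adjusted p = 0.0245), which did not pass without replicate 3 or 4 (0.146 and 0.144). Its mean was also lower in iCre than in LacZ cells in CTRL, at 3.05 ± 1.38 against 9.81 ± 3.19 CPM. The same held with bFGF (3.1 against 9.11), TGFβ (3.46 against 8.6) and IL-1β (2.49 against 6.0 CPM). The lower level was thus not particular to TNF-α.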
